A study of Bos taurus with 56 samples.

Results

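The step from 4-cell to 8-cell cattle (Bos taurus) embryos was examined with ATAC-seq, in which a transposase cuts accessible DNA so that sequenced fragments pile up over open chromatin as peaks. The 8-cell embryos gave 5 libraries and the 4-cell embryos 6 libraries, prepared from pooled embryos. The peaks of a stage's libraries had been merged into 1 list by the authors, which holds positions and no heights or read counts. All peaks of both lists were used, 64996 of the 673059 peaks in the 11 lists of the series. They were divided into shared peaks, with at least 1 bp in common with a peak of the other stage, peaks found only at the 8-cell stage and peaks found only at the 4-cell stage. Lists of GV oocytes (immature, with an intact nucleus), MII oocytes (mature), 2-cell embryos, 16-cell embryos, morulae, morulae derived in vivo, blastocysts, blastocysts derived in vivo and day 14 elongating embryos were used to look up earlier and later presence, from 6, 5, 6, 5, 6, 4, 3, 4 and 6 libraries in that order. The labels used here do not state strain, how 4-cell or 8-cell embryos were produced or how many were pooled.

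Until the embryonic genome is switched on, a cattle embryo lives on RNA and protein stored in the oocyte. Minor transcription begins in the first cleavage cycles, and the main wave of activation comes around the 8-cell to 16-cell stage in cattle, later than in the mouse. Opening of chromatin at promoters and enhancers allows transcription factors and RNA polymerase to reach DNA, and widespread gain of accessible sites around activation is known from several mammals.

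The 8-cell list was far longer than the 4-cell list, and most 4-cell peaks were not among its peaks. It held 59186 peaks against 5810 in the 4-cell list, 10.2 times as many. The 8-cell peaks covered 36.8 Mb and the 4-cell peaks 2.66 Mb. In the 8-cell list, 57283 peaks (96.8%, 95% exact Clopper-Pearson interval 96.6% to 96.9%) had no 4-cell peak and 1903 had one. In the 4-cell list, 3890 peaks (67.0%, interval 65.7% to 68.2%) were found only at the 4-cell stage and 1920 (33.0%) were shared. The shared class was small at the 8-cell stage, where it held 5.61% of the covered bases, and large at the 4-cell stage, where it held 44.1%. Intervals here and below cover counting error only and treat neighbouring peaks as independent.

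The spread between libraries of a stage cannot be computed from merged lists, so no test between the stages was possible and no p-value is given. Depth per library is unknown, and more open sites, more cells per embryo and more reads cannot be told apart as sources of a longer list. The shared fraction also depended on the overlap asked for. With 50% of both peaks overlapping, 14.9% of the 4-cell peaks were shared. With the 8-cell list reduced to its widest peaks, as many as the 4-cell list holds, 11.7% were shared. At the border between the classes, 45 shared 4-cell peaks overlapped an 8-cell peak by under 50 bp, and 43 unshared 4-cell peaks lay under 50 bp from one.

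Shared peaks were wider than unshared peaks in each list. At the 8-cell stage the median width was 451 bp for unshared peaks (quartiles 332 and 719 bp) and 838 bp for shared peaks (quartiles 502.5 and 1348 bp). At the 4-cell stage it was 358 bp for unshared peaks (quartiles 298 and 425 bp) and 444 bp for shared peaks (quartiles 343 and 665 bp). The widest peak found only at the 4-cell stage measured 1861 bp, whereas the widest found only at the 8-cell stage measured 8871 bp. The share of 4-cell peaks also found at the 8-cell stage was larger for wider peaks, with 20.8% of those under 300 bp, 34.6% of those from 400 to under 600 bp, 65.4% of those from 600 to under 1000 bp, 89.6% of those from 1000 to under 2000 bp and all 52 of those of 2000 bp or more. A wide peak is also more likely to be overlapped by any other peak, and the part of width alone in these shares was not tested.

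**Figure D1:**
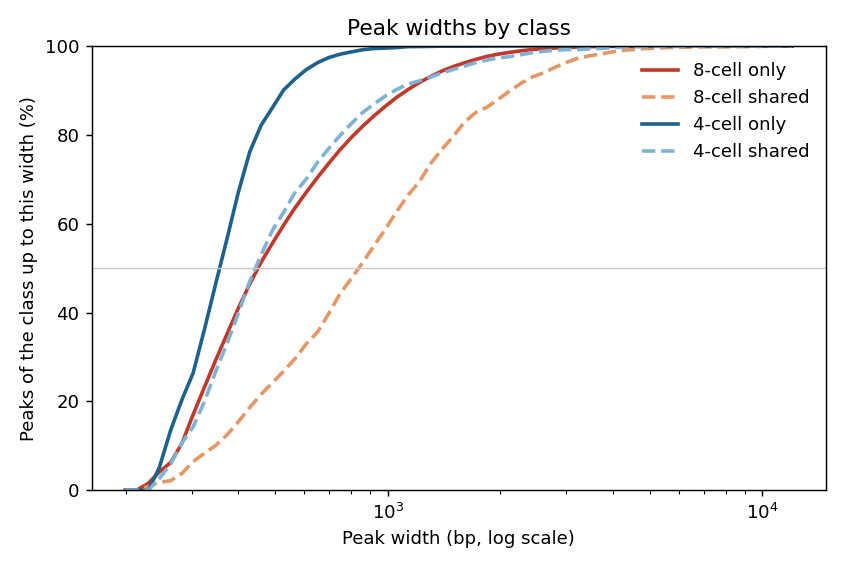
Cumulative share of peaks (vertical axis, %) up to a given width (horizontal axis, bp, log scale) for peaks found only at the 8-cell stage, 8-cell peaks shared with the 4-cell stage, peaks found only at the 4-cell stage and shared 4-cell peaks. The grey line marks the median, which was 451, 838, 358 and 444 bp in that order.

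The peaks of the 2 stages matched in a simple way. Among 1973 overlapping pairs, 1737 joined a single 8-cell peak to a single 4-cell peak, 68 of the 8-cell peaks spanned 2 or 3 of the 4-cell peaks, and 50 of the 4-cell peaks spanned 2 or 3 of the 8-cell peaks. In 847 (48.8%) of the single pairs the 4-cell peak lay wholly inside the 8-cell peak, and in 181 (10.4%) the 8-cell peak lay wholly inside a wider 4-cell peak. The other 709 pairs overlapped at offset ends. The midpoints of a pair lay a median of 127 bp apart.

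Shared sites were wider at the 8-cell stage. Their median width was 833 bp in 8-cell embryos and 436 bp in 4-cell embryos, and the median of the pairwise ratios, 8-cell over 4-cell, was 1.55 (quartiles 1 and 2.90, n = 1737 pairs). At the 8-cell stage 1301 of the peaks were wider, 432 narrower and 4 of equal width. A ratio of at least 1.5 was reached by 903 pairs (52%), and a peak at least 1.5 times narrower at the 8-cell stage was seen in 110 (6.33%). The 8-cell peak reached past the 4-cell peak at both ends in 823 pairs (47.4%) and at 1 end in 733 (42.2%). All of the pairs are members, so 52% and 6.33% are also the background shares of this step.

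Neighbouring steps had other shares. From the 2-cell to the 4-cell stage, 26.1% of 597 single pairs were at least 1.5 times wider at the 4-cell stage and 5.36% at least 1.5 times narrower. From the 8-cell to the 16-cell stage, 20.8% of 22599 pairs were at least 1.5 times wider at the 16-cell stage and 25.6% narrower. From the 16-cell stage to the morula the shares were 43.7% wider and 11.4% narrower in the morula, over 27968 pairs. Median widths of the whole lists differed too, at 330, 377, 458, 409 and 525 bp from the 2-cell stage to the morula, and the part of list-wide width in the pairwise changes was not tested. With 50% of both peaks overlapping, a rule that admits no ratio above 2, the median ratio from the 4-cell to the 8-cell stage was 1.06 and 18.7% of the pairs were at least 1.5 times wider at the 8-cell stage. With the widest 8-cell peaks alone, a choice that favours high ratios, the median ratio was 3.58.

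Width change differed with the history of the site. Of the shared single pairs, 1107 had no GV, MII or 2-cell peak under the 4-cell peak, and 630 had one. Sites without an earlier peak had a median width of 862 bp at the 8-cell stage and 389 bp at the 4-cell stage, with a median ratio of 2.09. Sites with an earlier peak had a median of 786 bp at the 8-cell stage and 646.5 bp at the 4-cell stage, with a median ratio of 1.07. A width ratio within 1.2 times either way was found for 155 (14.0%, interval 12% to 16.2%) of the sites without an earlier peak and for 280 (44.4%, interval 40.5% to 48.4%) of those with one.

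Sites with an earlier peak were wider at the 4-cell stage, and ratios were larger for narrow 4-cell peaks. The 4-cell width is the divisor of the ratio, so grouping by it favours larger ratios in the narrow groups. The size of this effect was not tested. The difference by history was seen in each of 5 groups of about equal size by 4-cell width. In the narrowest group (233 to 320 bp) the median ratio was 3.06 without an earlier peak (289 pairs) and 2.67 with one (55 pairs). In the middle group (396 to 488 bp) it was 1.83 without (256 pairs) and 1.31 with (88 pairs). In the widest group (715 to 4773 bp) it was 1.26 without (78 pairs) and 0.995 with (271 pairs). Of the pairs in that widest group, 39.7% were at least 1.5 times wider at the 8-cell stage when no earlier peak was present, and 8.49% when one was. Median 4-cell widths there still differed, at 869 bp without and 1005 bp with an earlier peak, against 434 and 438 bp in the middle group. The part of this remaining width difference was not tested.

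**Figure D2:**
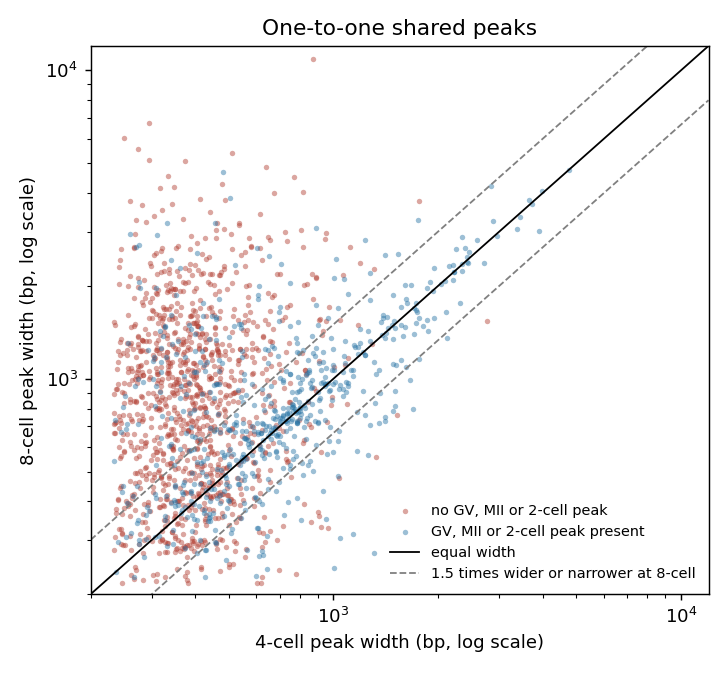
Width of the 8-cell peak (vertical axis, bp, log scale) against width of the 4-cell peak (horizontal axis, bp, log scale) for 1737 single pairs, coloured by whether a GV, MII or 2-cell peak overlapped the 4-cell peak. Points with an earlier peak lie closer to the line of equal width (median ratio 1.07) than points without one, which spread above it (median ratio 2.09). For 4-cell peaks of 233 to 320 bp both kinds lie mostly above the line, with median ratios of 2.67 with and 3.06 without an earlier peak.

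Earlier presence also went with persistence. Of the 4-cell peaks without a GV, MII or 2-cell peak, 1190 of 4925 (24.2%, interval 23.0% to 25.4%) were found at the 8-cell stage, against 730 of 885 (82.5%, interval 79.8% to 84.9%) of those with one. Among peaks of 300 to under 400 bp the shares were 20.7% without an earlier peak and 65.8% with one, and among peaks of 600 to under 1000 bp 45.6% and 89.4%. In other terms, 3.98% of the peaks found at the 4-cell stage and not at the 8-cell stage had an earlier peak, against 38.0% of the shared 4-cell peaks.

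Single loci show how far widths moved. The largest gain lay on chromosome 8, where the 8-cell peak at chr8:80832687-80843559 (UMD3.1, here and below) measured 10873 bp and the 4-cell peak inside it, chr8:80835592-80836464, measured 873 bp. At chr21:33776188-33782938 the 8-cell peak measured 6751 bp and the 4-cell peak 294 bp. At chr6:8020014-8026068 the widths were 6055 bp at the 8-cell stage and 249 bp at the 4-cell stage, a ratio of 24.3. All these loci had peaks at 16-cell, in both morula lists and at day 14. The largest losses were smaller, and their sites too had 16-cell, morula and day 14 peaks. The 8-cell peak at chr29:5512930-5514468 measured 1539 bp inside a 4-cell peak of 2761 bp. At chr13:5336634-5336906 the widths were 273 bp at the 8-cell stage and 1305 bp at the 4-cell stage, and at chr14:43044153-43044949 they were 797 bp and 1692 bp in that order.

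The gain in number was seen on all 30 chromosomes and was uneven. On chromosome 22 there were 1137 peaks at the 8-cell stage and 56 at the 4-cell stage, 20.3 times as many. Chromosomes 3 (16.0 times) and 18 (15.3 times) followed. The smallest ratios were 5.24 on chromosome 27 (954 peaks at the 8-cell stage and 182 at the 4-cell stage), 6.55 on chromosome 14 and 7.16 on chromosome 29. These 3 chromosomes had the highest 4-cell densities (4.01, 3.33 and 3.24 peaks per Mb) and chromosome 22 the lowest (0.912 per Mb), while the 8-cell densities of chromosomes 27, 14 and 29 lay near the value of the whole list, 22.2 per Mb, at 21.0, 21.8 and 23.2 per Mb. Density at the 8-cell stage was highest on chromosome 18 (34.7 per Mb), 3 (28.5 per Mb) and 25 (27.6 per Mb) and lowest on X (13.0 per Mb), 20 (17.4 per Mb) and 24 (17.6 per Mb). Densities varied 2.68-fold across chromosomes at the 8-cell stage and 4.4-fold at the 4-cell stage. For chromosome 14, 95 of the 282 4-cell peaks lay in the window from 0 to 1 Mb. For chromosome 27, 48 of the 182 lay between 28 and 29 Mb. For chromosome 29, 38 of the 167 lay between 5 and 6 Mb. The highest ratio of peak numbers was 3.87 times the lowest. Leaving out the 10 windows of 1 Mb fullest in unshared 4-cell peaks lowered this to 2.80 times. Those windows were chosen after their values were seen. Chromosome lengths were taken as the last position in any list.

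Persistence of 4-cell peaks was highest on the X chromosome. There 153 of 266 (57.5%, interval 51.3% to 63.5%) were found at the 8-cell stage, against 1767 of 5544 (31.9%, interval 30.6% to 33.1%) on the autosomes. Among 4-cell peaks with no earlier peak the shares were 41.8% on X (interval 34.2% to 49.7%) and 23.6% on the autosomes (interval 22.4% to 24.8%). Among those with a GV, MII or 2-cell peak they were 83.2% on X and 82.4% on the autosomes. X also had more of the second kind, 38.0% of its 4-cell peaks against 14.1% on the autosomes. The 4-cell peaks of X were wider too, with a median of 436 bp against 377 bp in the whole 4-cell list. X and the autosomes were not compared at equal width, and the part of width in the share on X was not tested. In persistence, chromosomes 18 (49.3%) and 29 (47.9%) came next, and their intervals (41.1% to 57.6% and 40.1% to 55.8%) both overlapped that of X. The lowest shares were 17.7% on chromosome 23 (interval 11.6% to 25.4%), 19.7% on chromosome 12 and 22.2% on both chromosomes 20 and 24, whose intervals overlapped one another.

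**Figure D3:**
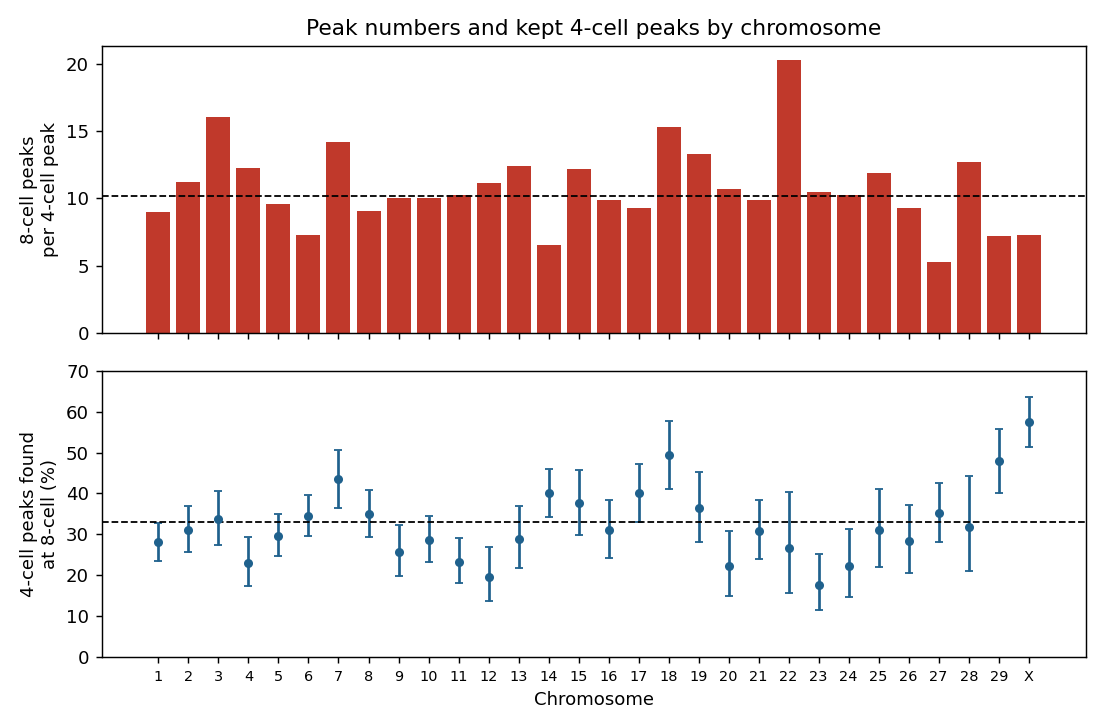
Number of 8-cell peaks per 4-cell peak (upper panel, bars) and share of 4-cell peaks found at the 8-cell stage (lower panel, %, points with 95% exact intervals) for each chromosome. Dashed lines are the values of the whole lists, 10.2 and 33.0%. Chromosome 22 has the highest bar (20.3), chromosome 27 the lowest (5.24), and X the highest share of kept peaks (57.5%).

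Along the autosomes, the classes differed in place. The peaks found only at the 8-cell stage were spread evenly, with 8.48% to 11.01% in each 10% of chromosome length. Cattle autosomes have their centromere at one end, where coordinates begin. The last 10% of length held 19.1% (interval 17.8% to 20.4%) of the peaks found only at the 4-cell stage and 12.9% (interval 11.4% to 14.6%) of the shared 4-cell peaks. In the first 10% the order was the other way, with 9.29% (interval 8.39% to 10.3%) of the unshared and 16.4% (interval 14.7% to 18.2%) of the shared 4-cell peaks. Every autosome had more than 10% of its unshared 4-cell peaks in its last 10%, from 10.3% to 32.8%. Of the autosomal 4-cell peaks, 45.2% of those in the first 10% of length were found at the 8-cell stage, and 24.1% of those in the last 10%. The last 10% also held 23.1% of GV oocyte peaks and 18.7% of 2-cell peaks, 10.2% of 16-cell peaks, 11% of morula peaks and 18.0% of day 14 peaks. Without the 10 windows of 1 Mb that held most unshared 4-cell peaks, chosen after their values were seen, the last 10% held 18.3% of the unshared and 13.6% of the shared 4-cell peaks, and the first 10% held 8.85% and 13.7% in that order.

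Most new 8-cell peaks, those found only at the 8-cell stage, lay 100 kb or more from any 4-cell peak. The median gap was 167809 bp, with quartiles of 55268 and 404421 bp. The 4-cell list held only 2.18 peaks per Mb, and a sparse list leaves long gaps around any position. The part of this sparsity in the distances was not tested. Of the 57283 peaks, 710 (1.24%) lay within 1 kb of a 4-cell peak, 2647 (4.62%) within 5 kb and 62.9% at 100 kb or more. New peaks of later stages lay slightly farther from the 4-cell peaks, with a median of 185516 bp for 16-cell peaks absent at both stages and 193478 bp for such morula peaks. Within 5 kb were 3.01% of those 16-cell peaks and 3.0% of those morula peaks. The distance varied little with width, its median lying between 161195 and 174498 bp in 5 groups of new peaks of about equal size by width. With all lists restricted to peaks of at least 329 bp the median was 266700 bp. Over all new peaks it was longest on chromosome 22 (456850 bp), which had the fewest 4-cell peaks, followed by chromosome 12 (273670 bp) and X (272992 bp), and shortest on chromosomes 27 (105110 bp), 5 (106829 bp) and 25 (111129 bp).

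Within 5 kb of a shared 4-cell peak lay 2.41% of the new peaks. A new 8-cell peak lay within 5 kb of 26.0% (interval 24.6% to 27.4%) of the unshared 4-cell peaks and 49.1% (interval 46.8% to 51.3%) of the shared 4-cell peaks. In the other direction, unshared 4-cell peaks lay a median of 14446 bp from the nearest 8-cell peak, and 10.8% of them within 1 kb. The 3 new peaks farthest from a 4-cell peak stood together at chr2:76261634-76262406, chr2:76262804-76263113 and chr2:76280051-76280442, up to 3.81 Mb (3814031 bp) away. Morula peaks overlapped the first and the second, and no other list had a peak at the third.

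**Figure D4:**
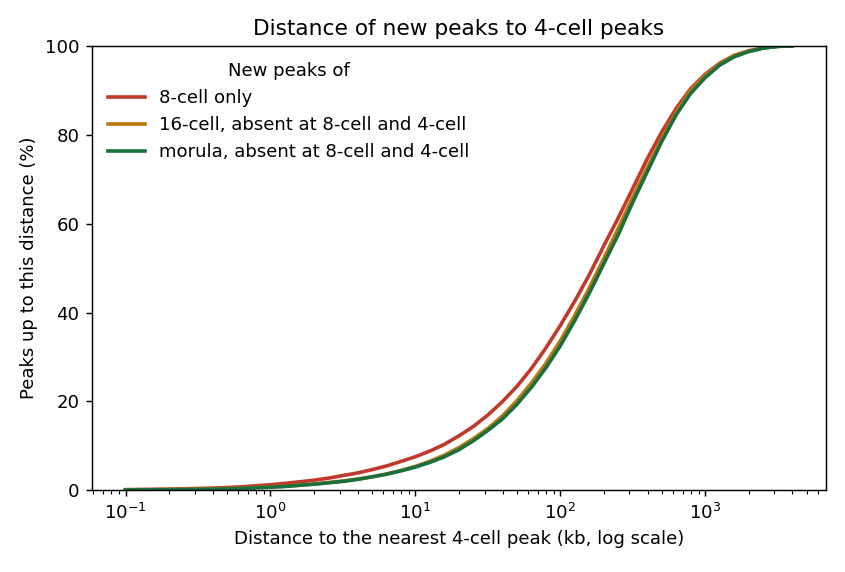
Cumulative share of peaks (vertical axis, %) up to a given distance from the nearest 4-cell peak (horizontal axis, kb, log scale), for new 8-cell peaks and for 16-cell and morula peaks absent at both the 8-cell and the 4-cell stage. The 8-cell curve lies slightly to the left of the others, with medians of 167809, 185516 and 193478 bp.

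New peaks were found in almost all 1 Mb windows. Only 4 of 2678 windows had none, and the median was 19, whereas 709 windows (26.5%) had no 4-cell peak. Those 709 windows held 20.1% of the new peaks. The fullest windows were on chromosome 23 from 31 to 32 Mb with 124 new peaks, chromosome 5 from 57 to 58 Mb with 114, chromosome 18 from 56 to 57 Mb with 103, chromosome 25 from 27 to 28 Mb with 98 and chromosome 10 from 21 to 22 Mb with 96. Each had between 3 and 9 peaks at the 4-cell stage and 79 to 138 at the 16-cell stage. Peaks found only at the 4-cell stage were most numerous on chromosome 14 from 0 to 1 Mb (30), 29 from 5 to 6 Mb (21), 27 from 28 to 29 Mb (19), 10 from 100 to 101 Mb (16) and 27 from 5 to 6 Mb (14). The chromosome 14 window was also full in the 2-cell list, with 83 peaks, and held 65 shared 4-cell peaks. Over the windows, the number of new peaks had a Spearman rho of 0.28 with the number of 4-cell peaks and of 0.76 with the number of 16-cell peaks (n = 2678 windows, which are not independent along a chromosome). The median number of 4-cell peaks per window was 1, so many windows were tied and the 2 rho values are not directly comparable.

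Later presence separated the classes. Of the peaks found only at the 8-cell stage, 17263 (30.1%, interval 29.8% to 30.5%) overlapped both a 16-cell and a morula peak, against 1375 (72.3%, interval 70.2% to 74.3%) of the shared 8-cell peaks and 31.5% of all 8-cell peaks. A further 13.7% of the new peaks were found at 16-cell without morula, 8.5% in the morula without 16-cell, and 27279 (47.6%) in neither. For the shared 8-cell peaks these shares were 6.67%, 6.83% and 14.2%. Peaks found only at the 4-cell stage seldom came back, with 204 (5.24%, interval 4.56% to 5.99%) at both later stages, against 1338 (69.7%, interval 67.6% to 71.7%) of the shared 4-cell peaks and 26.5% of all 4-cell peaks. In neither later list were 82.8% of the unshared and 15.3% of the shared 4-cell peaks. With 50% of both peaks overlapping, the shares at both stages were 11.8% for peaks found only at 8-cell, 1.90% for those found only at 4-cell and 43.1% for shared 4-cell peaks. With the widest 8-cell peaks alone, 76.0% of those without a 4-cell peak were found at both stages, and so were 19.3% of the 4-cell peaks without a counterpart in that reduced list.

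The difference between classes was seen at equal width. New 8-cell peaks under 300 bp were found at both later stages in 11.3% of cases (interval 10.7% to 12%), against 32.8% (interval 24.3% to 42.1%) for shared ones. From 600 to under 1000 bp the shares were 44.1% for new and 76.3% for shared peaks, and from 1000 to under 2000 bp 68.3% and 87.0%. Among peaks of 2000 bp or more the intervals overlapped, at 88.6% (interval 86.4% to 90.5%) for 1014 new and 91.5% (interval 87.0% to 94.8%) for 223 shared peaks. At the 4-cell stage, peaks under 300 bp were found again at both later stages in 3.84% of unshared and 65.6% of shared cases, and peaks from 600 to under 1000 bp in 12.9% and 74.8%. The shared 4-cell peaks thus varied little with their own width below 600 bp, between 64.2% and 66.1%.

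**Figure D5:**
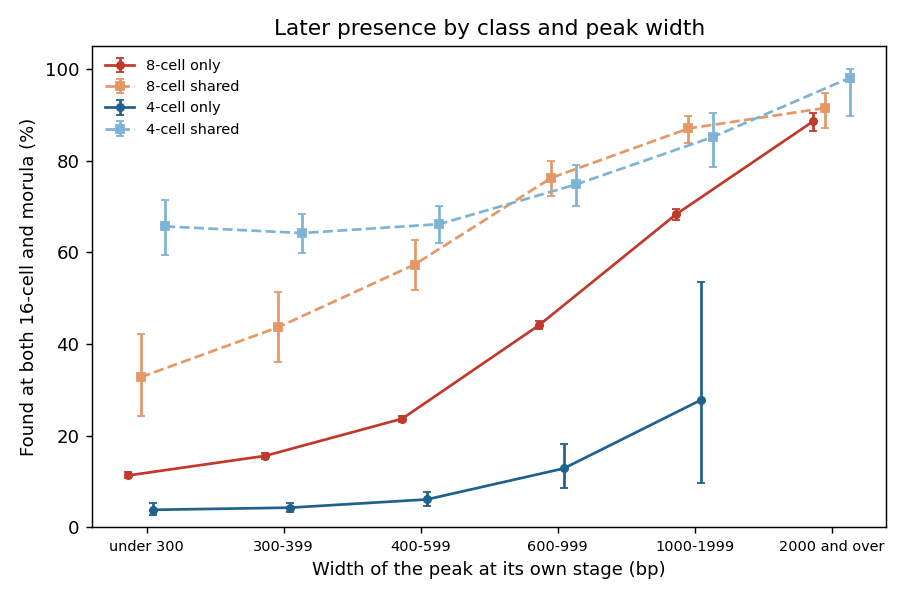
Share of peaks found at both the 16-cell stage and the morula (vertical axis, %, with 95% exact intervals) by the width of the peak at its own stage (horizontal axis, bp), for the same 4 classes. New 8-cell peaks climb from 11.3% under 300 bp to 88.6% at 2000 bp and over, while peaks found only at the 4-cell stage stay at 12.9% or less below 1000 bp; they had 18 members from 1000 to under 2000 bp and none above.

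New peaks differed by history as well. Among the peaks found only at the 8-cell stage, 56193 had no GV, MII or 2-cell peak either, and 1090 had one, with median widths of 448 bp without and 736 bp with an earlier peak. At both later stages were 29.4% (interval 29.0% to 29.7%) of the peaks without an earlier peak and 70% (interval 67.2% to 72.7%) of those with one. Among new peaks of 400 to under 600 bp the shares were 23.3% without and 54.8% with an earlier peak. By distance to the nearest 4-cell peak, the share of new peaks at both later stages showed no steady trend. It was 32.1% within 1 kb (interval 28.7% to 35.7%), 28.4% from 1 to 5 kb, 29.3% from 5 to 20 kb, 31.6% from 20 to 100 kb, 30.5% from 100 to 500 kb and 27.8% at 500 kb or more (interval 27.0% to 28.7%). Presence at day 14, in contrast, fell with each step of distance, from 52.8% within 1 kb to 26.8% at 500 kb or more. By chromosome, the share of new peaks at both later stages was highest on 7 and 22 (36.1% each) and 18 (33.8%) and lowest on 27 (23.4%), 12 (23.7%) and 20 (24.6%).

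Shared sites followed through the stages had larger median widths at 8-cell than at 4-cell or 16-cell, and the largest in the morula. The whole lists had the same order of medians, at 377, 458, 409 and 525 bp from the 4-cell stage to the morula. At 1143 sites with a single peak in each list from the 4-cell stage to the morula, the median width was 444 bp at 4-cell, 967 bp at 8-cell, 866 bp at 16-cell and 1175 bp in the morula. The widest of the 4 peaks was the 4-cell one at 9.27% of these sites, the 8-cell one at 29.9%, the 16-cell one at 11.3% and the morula one at 49.5%. At 364 sites that also had a single 2-cell peak, medians ran 576.5, 706, 761, 709 and 782.5 bp. New peaks with a single 16-cell and morula partner (12773 sites) had medians of 698 bp at 8-cell, 726 bp at 16-cell and 983 bp in the morula.

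In the remaining lists, too, shared peaks were found more often than unshared ones. Morulae derived in vivo had 26.1% of the new 8-cell peaks and 64.4% of the shared 8-cell peaks, and 6.5% of the unshared and 62.7% of the shared 4-cell peaks. In blastocysts, whose list holds 3397 peaks, were 0.506% of the new and 33.9% of the shared 8-cell peaks, and 3.16% of the unshared and 33.5% of the shared 4-cell peaks. In blastocysts derived in vivo were 0.410% of the new 8-cell peaks and 2.24% of the unshared 4-cell peaks, so that in both blastocyst lists the new 8-cell peaks had the smaller share, unlike at 16-cell and in the morula. At day 14, whose list holds 372509 peaks, were 35.6% of the new and 85.8% of the shared 8-cell peaks. Peaks found only at the 4-cell stage overlapped a day 14 peak in 34.5% of cases (interval 33.0% to 36.0%), close to the new 8-cell peaks. Of these 4-cell peaks, 905 (23.3%) did so while absent from the 16-cell and morula lists, against 4687 (8.18%) of the new 8-cell peaks. These are shares of whole classes, which differed in absence itself. In neither of those 2 lists were 3220 (82.8%) of the unshared 4-cell peaks and 27279 (47.6%) of the new 8-cell peaks. In no further list of the series were 21881 (38.2%) of the new 8-cell peaks, 111 (5.83%) of the shared 8-cell peaks, 2260 (58.1%) of the unshared 4-cell peaks and 129 (6.72%) of the shared 4-cell peaks.

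The widest sites of each class had different lists. Among new 8-cell peaks, chrX:82265202-82274072 (8871 bp) and chr6:49138428-49147248 (8821 bp) continued at 16-cell and in both morula lists, and chr7:17181990-17190337 (8348 bp) at 16-cell, in the morula and at day 14. The next, chr8:80875781-80882782 (7002 bp), was found at 16-cell alone among the other lists, and the last, chr1:126984908-126991007 (6100 bp), at 16-cell, in both morula lists and at day 14. The widest new peaks found at 16-cell without morula further included chr29:1930731-1935282 (4552 bp) and chr18:64565361-64568963 (3603 bp), both with a day 14 peak. Found in the morula without 16-cell were chr8:70091513-70094218 (2706 bp), which had a GV peak too, chr24:21381479-21384142 (2664 bp) and chr18:36505110-36507480 (2371 bp). In neither list were chr5:52168867-52171818 (2952 bp), chr18:45514434-45517311 (2878 bp) and chr8:80855392-80858253 (2862 bp), of which the first had a day 14 peak and the others no further peak.

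The widest 4-cell peaks without an 8-cell peak were narrower. The first, chrX:14082707-14084567 (1861 bp), had GV, 2-cell, blastocyst and day 14 peaks. The second, chr27:23716833-23718548 (1716 bp), lay 1759 bp from an 8-cell peak and was found at 16-cell, in both morula lists, in blastocysts derived in vivo and at day 14. The others were chr10:103110339-103111695 (1357 bp, with day 14), chr28:46276375-46277729 (1355 bp, with 2-cell, 16-cell, morula and day 14) and chr6:15942710-15943993 (1284 bp, in no other list). By contrast, the 5 widest shared 4-cell peaks, at chr3:8102265-8109236 (6972 bp), chr14:480044-486432 (6389 bp), chr8:76341539-76346573 (5035 bp), chr15:2661-7433 (4773 bp) and chrX:89972516-89976836 (4321 bp), each had peaks in 10 or all 11 lists, oocytes and blastocysts included.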

How the data were processed

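ATAC-seq peaks of 56 libraries in 11 groups were deposited by the authors as 1 merged list per group, with chromosome, start and end of each peak in bp. The build was UMD3.1 and the tools included MACS2, Bowtie2 2.3, HOMER and bedtools, per the submitters' processing notes. The sources used here do not state the calling threshold, read shift or merging rule, each of which affects the number and width of peaks. Lists were read as BED, with starts counted from 0, and positions are printed counting from 1. No genome or gene annotation of that build was used, so sites are given without genes or sequences.

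Overlaps, gaps and widths were computed with Python 3.11.15, numpy 2.4.6 and pandas 2.3.3, and intervals with scipy 1.17.1. Overlap and distance calculations were tested on simulated lists and were equal to bedtools 2.31.1. Presence at a stage means an overlap of at least 1 bp. The regions named were the 5 widest of each class (shared ones at the 4-cell stage), the 3 largest gains and losses in width, the 3 farthest, the 3 widest new peaks of each later presence, the 5 fullest windows of 1 Mb, and the 3 highest and lowest chromosomes. Members, regions and alternatives were chosen with earlier results of these data known. Alternatives changed the overlap rule, the width or joining of peaks, the length of the 8-cell list, and the chromosomes, windows or oocyte sites included.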

Additional observations from a re-analysis of the deposited data

How the results depend on the processing

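No paired analysis was possible because each stage has 1 merged list, and for the same reason no library could be left out in turn. Counts and covered lengths (10.2 and 13.9 times) stayed within 1.5 times under all settings except the reduction to the widest 8-cell peaks, as many as 4-cell peaks, which sets them to 1 and 3.78. In the following, moved values are given in the order shared 4-cell peaks (33.0%), 8-cell peaks without a 4-cell peak (96.8%), median width ratio (1.55), pairs at least 1.5 times wider (52.0%), median distance (167809 bp), and presence at both 16-cell and morula of peaks found only at 8-cell (30.1%), only at 4-cell (5.24%) and shared at 4-cell (69.7%); a value not listed stayed within the 95% interval of the value reported. With 50% of both peaks overlapping they were 14.9%, 98.5%, 1.06, 18.7%, 162398 bp, 11.8%, 1.90% and 43.1%. With 50% of the narrower peak overlapping, the shared share was 30.3%, the unmatched 8-cell share 97.1%, and the later presence of unshared peaks 26.7% (8-cell) and 4.27% (4-cell). With peaks of at least 329 bp, the median of all lists, they were 35.9% shared, ratio 1.40, 47.7% wider, 266700 bp, and 31.9% and 4.46% later presence of unshared 8-cell and 4-cell peaks. With peaks closer than 500 bp joined, the ratio was 1.68, 55.0% were wider, the distance 171255 bp and the later presence of new peaks 30.7%. With peaks widened by 250 bp on each side, they were 36.3%, 96.2%, 1.30, 40.6%, 172008 bp, 33.5% and 6.08%. With the widest 8-cell peaks alone they were 11.7%, 89.4%, 3.58, 81.4%, 154360 bp, 76.0%, 19.3% and 81.7%, and the highest ratio of peak numbers on a chromosome was 6.13 times the lowest instead of 3.87 times. Keeping the widest 8-cell peaks favours high width ratios by construction. Without peaks that overlap an oocyte peak they were 26.7%, 97.6%, 1.79, 59.1%, 178516 bp, 29.5% and, for shared peaks, 64.6%. Without X, the unmatched 8-cell share was 96.9%. The 10 windows of 1 Mb fullest in unshared 4-cell peaks were also left out, a setting chosen after seeing the data. The unmatched 8-cell share was then 97.0%, the ratio 1.65 and 54.4% were wider. The highest ratio of peak numbers on a chromosome was 2.80 times the lowest without these windows. With peaks of at least 329 bp it was 5.15 times. In each of the 9 settings a larger share of shared than of unshared 4-cell peaks was found at both later stages. Apart from settings that fix the value by construction, the cause was not tested. Unknown depth limits the reading of absence: a peak missing from the short 4-cell list is not shown to be closed.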

Other observations

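Some 8-cell peaks, new and shared together, were packed into short stretches, which were chosen here after their values were seen. In windows of 100 kb, the median share of bases covered by 8-cell peaks was 0.639%, and 15 of 26626 windows exceeded 20%. The highest, chr8:80800001-80900000, was covered to 50.2% by 35 peaks at the 8-cell stage and to 0.873% by a single peak at the 4-cell stage. It held no GV, MII, 2-cell or blastocyst peak. Its last 8-cell peak, chr8:80896487-80902584, ran past the window and overlapped a GV peak there. Coverage of the window was 15.1% at 16-cell, 6.83% in the morula and 4.49% at day 14. The window contains the site of the largest width gain and the wide new peaks chr8:80875781-80882782 and chr8:80855392-80858253. The window ranked second, chr23:30700001-30800000, was covered to 35.0% at 8-cell and 0.973% at 4-cell, and was covered to 29.99% at 16-cell and 37.2% in the morula. The fifth, chr23:28100001-28200000, was covered to 25.6% at 8-cell and 1.5% at 4-cell. The third and the fourth, chr1:145300001-145400000 and chr29:30200001-30300000, were covered to 28.0% and 26.9% at 8-cell, against 17.3% and 23.0% at 4-cell, and in blastocysts to 51.8% and 43.5%. No explanation of these stretches was tested.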
